A study of Mus musculus with 10 samples.

Results

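The 9 genes described here carry retinoic acid signals into and within the cell: the retinoic acid receptors Rara, Rarb and Rarg, the retinoid X receptors Rxra, Rxrb and Rxrg, the cytoplasmic binding proteins Crabp1 and Crabp2, and Stra6, a membrane receptor for retinol. They were taken as all probe sets (groups of array probes summarised as 1 value) annotated to exactly 1 gene among these 9. This gave 12 of 45037 probe sets after 64 array controls were left out. Rxra had 3 probe sets, Rarg had 2 and each other gene had 1. No filter on low signal was applied, so all 12 were tested. Where a gene had several, the brightest one, by its mean over the 10 arrays, stood for it.

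Glomeruli were isolated from 5 mice with 1 R394W copy of Wt1 (Wt1 +/R394W, a knock-in missense allele) and from 5 littermates with both wild-type copies (Wt1 +/+). All 10 mice were unweaned males aged 27 days from the 4th backcross generation to FVB/N, and each gave its own array. Glomeruli were recovered by perfusing magnetic beads through the heart. The knock-in models Denys-Drash syndrome, a childhood kidney disease caused by WT1 mutations, and the mutants were chosen with little albumin in the urine and no mesangial lesions. The allele is carried in every cell, so the cells in which it acts are not separated in whole glomeruli.

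Retinol can enter cells through STRA6, and it is oxidised to retinoic acid by RDH10 and then by enzymes of the ALDH1A family. CRABP proteins bind retinoic acid in the cytoplasm, and CYP26 enzymes break it down. In the nucleus a retinoic acid receptor (RAR) paired with a retinoid X receptor (RXR) sits on direct repeats in DNA and activates transcription when the ligand binds. Retinoic acid is known in the kidney for its role in nephron formation and, in cultured podocytes and rodent glomerular disease, for promoting podocyte differentiation.

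Values are log2 expression values made by the authors with RMA. Array medians lay between 6.31 and 6.39, any 2 arrays correlated at 0.985 to 0.997, and 0 pairs of arrays were identical. The number of arrays limits the precision. Each p-value sets the genotype difference against the spread between mice of the same genotype, which limma pulls toward a value shared by all probe sets. Markers of podocytes, the epithelial cells of the glomerular filter, had mean levels per array of 12.49 to 12.80 in Wt1 +/R394W and 12.77 to 12.92 in Wt1 +/+ over 9 genes. Wt1 itself, the gene that carries the mutation (1425995_s_at, chromosome 2), read 11.63 ± 0.16 in Wt1 +/R394W and 11.30 ± 0.17 in Wt1 +/+ (SD, n = 5 each). Its adjusted p was 0.244 in limma over all probe sets, and since a missense allele may leave the level as it was, the genotype labels are not checked by it.

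None of the 12 probe sets of the retinoid receptors and binding proteins was called as different between the genotypes. In limma, with Benjamini-Hochberg adjustment over all 45037 probe sets and a threshold of 0.05, 0 of 12 were called, and 0 had an unadjusted p under 0.05. Over the whole array 0.853% of probe sets were called, 0.391% higher and 0.462% lower in Wt1 +/R394W, and 9.36% had an unadjusted p under 0.05. The array-wide total of 384 fell to 242 without wild type 1 and to 216 without wild type 4, while the count among the 12 was 0 without any 1 mouse. A count of 0 among 12 is therefore near what the background share gives for so few probe sets. The changes (Wt1 +/R394W minus Wt1 +/+) were positive in 7 and negative in 5, with a median of 0.01 and a median size of 0.06 on the log2 scale, beside a median size of 0.07 over all probe sets. The genotypes overlapped in all 12, and they were separate in 2.78% of all probe sets.

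The intervals of these changes were narrow. All 12 95% intervals, each taken singly, included 0, and none reached a 1.5-fold change in either direction. The bound furthest from 0 was 0.49 on the log2 scale, or 1.40-fold, for Rarb. The residual SD of the 12 probe sets ran from 0.09 to 0.23, against a median of 0.14 over the array. A cell type that makes little of the glomerular RNA could change without moving these whole-glomerulus values, and in such bulk samples fewer cells of a type and less RNA per cell cannot be told apart.

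**Figure D1:**
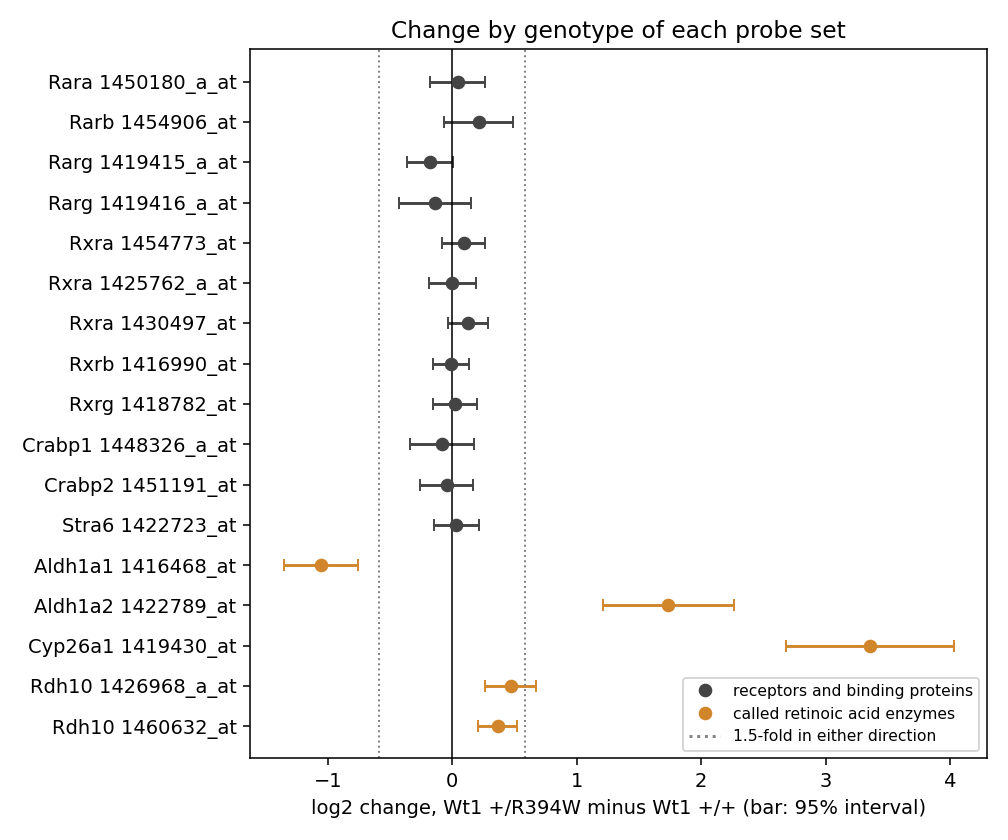
Change of each probe set on the log2 scale, Wt1 +/R394W minus Wt1 +/+, with 95% intervals (n = 5 mice each), for the 12 probe sets of the receptors and binding proteins (grey) and 5 probe sets of called retinoic acid enzymes (orange). The 12 grey intervals cross 0 and stay inside the dotted lines at 1.5-fold.

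Signal placed the chosen probe sets in separate ranges of the array. Each is given by its percentile among all probe sets. A percentile ranks signal, and it does not compare transcript amounts between genes. The chosen probe sets of Rarg and Rxrb had means above 92.2% and 90.6% of all probe sets. Those of Rxra and Rarb lay above 81.2% and 80.1%, and that of Rara above 62.9%. The chosen probe set is the brightest of its gene, and the others lay lower, at 77.8% for Rarg and at 68.4% and 21.7% for Rxra. Stra6 (44.6%), Rxrg (40.9%), Crabp2 (29.3%) and Crabp1 (14.2%) lay below the median of the array. The table holds no detection calls, so whether these 4 transcripts were present was not tested, and RMA compresses differences at low signal.

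**Figure D2:**
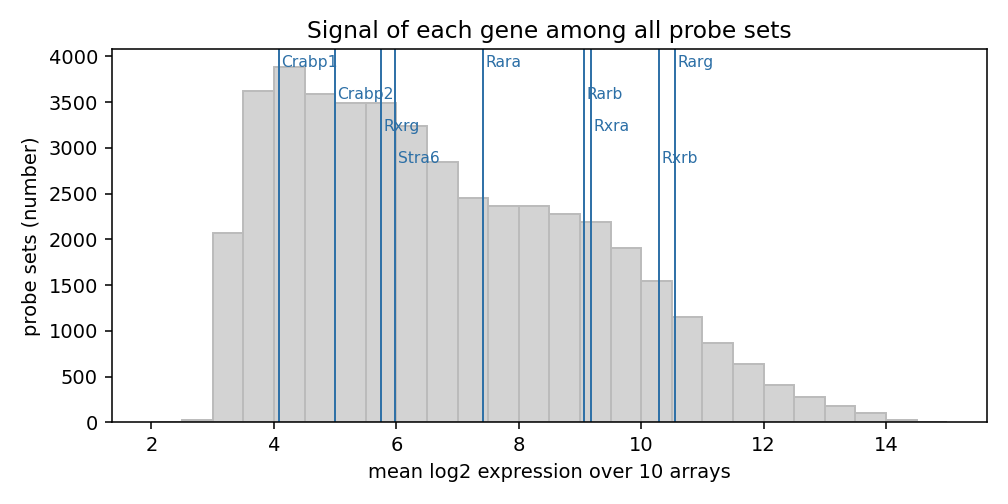
Number of probe sets (vertical axis) by mean log2 expression over the 10 arrays (horizontal axis), with a line at the chosen probe set of each gene. The receptors Rarg, Rxrb, Rxra and Rarb lie in the upper part of the distribution, and Crabp1, Crabp2, Rxrg and Stra6 in the lower part.

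Stra6 (1422723_at, chromosome 9) encodes a membrane receptor for retinol, and retinol uptake was not measured. It read 6.19, 6.05, 6.05, 5.75 and 5.95 in the Wt1 +/R394W mice and 6.05, 5.87, 6.02, 5.89 and 6.01 in the Wt1 +/+ mice. Both the highest and the lowest value belonged to mutants. The difference of 0.03 ± 0.08 (SE, 95% interval -0.15 to 0.21) had an adjusted p of 0.936.

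The binding proteins lay in the lower part of the range in both genotypes. Crabp1, which is known to hold retinoic acid in the cytoplasm and to aid its breakdown, read 4.04, 3.73, 3.98, 3.98 and 4.47 in Wt1 +/R394W and 4.15, 4.03, 4.05, 4.14 and 4.25 in Wt1 +/+ (1448326_a_at, chromosome 9). Mutant 5 was the highest of the 10 mice and mutant 2 the lowest, so the mutants spanned the whole wild-type range. The SD of Crabp1 was 0.27 in Wt1 +/R394W and 0.09 in Wt1 +/+ (n = 5 each), and the difference in spread was not tested. The change was -0.08 ± 0.12 (SE, adjusted p = 0.882). It was -0.0035 without mutant 2 and -0.19 without mutant 5, where the unadjusted p was 0.0381 and the adjusted p 0.565. Crabp2, which is known to deliver retinoic acid to nuclear receptors, averaged 4.97 ± 0.12 in Wt1 +/R394W and 5.02 ± 0.19 in Wt1 +/+ (SD, n = 5 each). Its change was -0.05 ± 0.10 (SE, 1451191_at, chromosome 3, adjusted p = 0.924).

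The receptors for retinoic acid came next. Rara, the broadly expressed RAR, read 7.22, 7.29, 7.46, 7.53 and 7.72 in Wt1 +/R394W and 7.43, 7.60, 7.26, 7.32 and 7.38 in Wt1 +/+ (1450180_a_at, chromosome 11). The values of the genotypes were interleaved, with a difference of 0.04 ± 0.10 (SE, 95% interval -0.18 to 0.26, adjusted p = 0.932).

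Rarb is both a receptor and a textbook target of retinoic acid, through a response element beside its start. Only 1 of the 18 promoter windows that RefSeq gave for 8 of the 9 genes held such an element, and it was that of Rarb; the sequence is shown beside that of Cyp26a1, the retinoic acid hydroxylase that rose in the mutants and whose window also held the element. The windows of the called enzymes Aldh1a1 and Aldh1a2 did not hold it, and Rdh10 was not searched. Windows ran from 250 bases before to 50 bases after each start. The search, on both strands, was for pairs of hexamers in the same direction with 5 bases between them (a DR5 repeat). A hexamer could be AGGTCA, the consensus of nuclear receptors, or its variant AGTTCA, or the form GGGTCA, or else GGTTCA, in any combination. No repeat of the same hexamers with 1 or 2 bases between them lay in either printed window. Only bases before the start are printed, 5′ to 3′ on the gene's strand, with the repeat hexamers in capitals. Builds and strands are chr14:16575477-16575569, minus strand, for Rarb and chr19:37697736-37697807, plus strand, for Cyp26a1 (GRCm38.p6).

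Rarb: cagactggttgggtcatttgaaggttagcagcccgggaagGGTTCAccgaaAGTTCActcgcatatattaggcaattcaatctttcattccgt
Cyp26a1: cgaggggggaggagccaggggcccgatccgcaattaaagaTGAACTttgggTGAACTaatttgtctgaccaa

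The repeat lay at positions -53 to -37 from the Rarb start and -32 to -16 from the Cyp26a1 start, where it reads on the opposite strand as follows.

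Rarb repeat: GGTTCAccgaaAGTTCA
Cyp26a1 repeat: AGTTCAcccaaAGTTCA

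A DR5 repeat of these hexamers was present in 32 of 32851 promoter windows in the table (0.0974%). Repeats with 2 or 1 bases between the hexamers (DR2 and DR1), which were in 0.268% and 0.222% of all windows, were in 0 of the 18 windows of the receptors and binding proteins. A match describes letters in a window, and no match says only that these letters are not in it.

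Of this pair with the repeat, Cyp26a1 was called and Rarb was not, and the difference between the genes was not tested. Rarb read 9.09, 9.26, 9.45, 8.80 and 9.30 in Wt1 +/R394W and 9.02, 8.79, 9.26, 9.00 and 8.78 in Wt1 +/+ (1454906_at, chromosome 14). Mutant 4 lay within the wild-type range near its lower end, and wild type 3 lay among the mutants. The Rarb change was 0.21 ± 0.13 (SE, 95% interval -0.07 to 0.49), with an adjusted p of 0.676. It ran from 0.14 to 0.31 with any 1 mouse left out, where the lowest adjusted p was 0.380. The unadjusted p in limma was 0.0190 without mutant 4 (change 0.31) and 0.0448 without wild type 3 (change 0.28). In the other alternatives it was above 0.05.

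Cyp26a1 read 9.08, 10.57, 10.61, 9.82 and 9.87 in Wt1 +/R394W and 7.21, 6.21, 6.72, 7.01 and 6.04 in Wt1 +/+ (1419430_at, chromosome 19). Every mutant lay above every wild type. The Cyp26a1 change was 3.35 ± 0.31 (SE, 95% interval 2.68 to 4.03, adjusted p = 0.000275), and its interval did not meet that of Rarb.

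Rarg had the smallest p of the 9 genes, and it was not called. It encodes the RAR best known from skin and cartilage. The chosen probe set read 10.30, 10.39, 10.69, 10.53 and 10.41 in Wt1 +/R394W and 10.65, 10.81, 10.54, 10.67 and 10.55 in Wt1 +/+ (1419415_a_at, chromosome 15). Mutants 1, 2, 4 and 5 lay below all wild types, and mutant 3 lay above all wild types except wild type 2. The change was -0.18 ± 0.08 (SE, 95% interval -0.36 to 0.01), with an unadjusted p of 0.0559 and an adjusted p of 0.552. Without mutant 3 it was -0.23, with an unadjusted p of 0.0120 in limma and an adjusted p of 0.354. The unadjusted p was also under 0.05 with quantile normalization (0.0349) and with either alternative variance model (0.0476 and 0.0461). The same held without wild type 3 (0.0448) or wild type 5 (0.0484), and in the other alternatives it was above 0.05.

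The second Rarg probe set (1419416_a_at) averaged 8.77 ± 0.26 in Wt1 +/R394W and 8.91 ± 0.20 in Wt1 +/+ (SD, n = 5 each). Its change of -0.14 ± 0.13 (SE, adjusted p = 0.815) had the same sign, but mutant 5 and wild type 4 were the highest of their groups here, in place of mutant 3 and wild type 2. The size of that change rested on single mice, since it was -0.04 without mutant 1 and -0.20 without wild type 5. The genes whose chosen probe sets ran closest to Rarg over the 10 arrays were Micall1, Dok4 and Gpatch2l. After each was centred on its own mean, their root mean square differences from Rarg were 0.056, 0.060 and 0.065 log2 units, against a median of 0.200 over all genes. None of the 3 was called, with changes of -0.18, -0.16 and -0.13 (adjusted p = 0.419, 0.629 and 0.669).

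**Figure D3:**
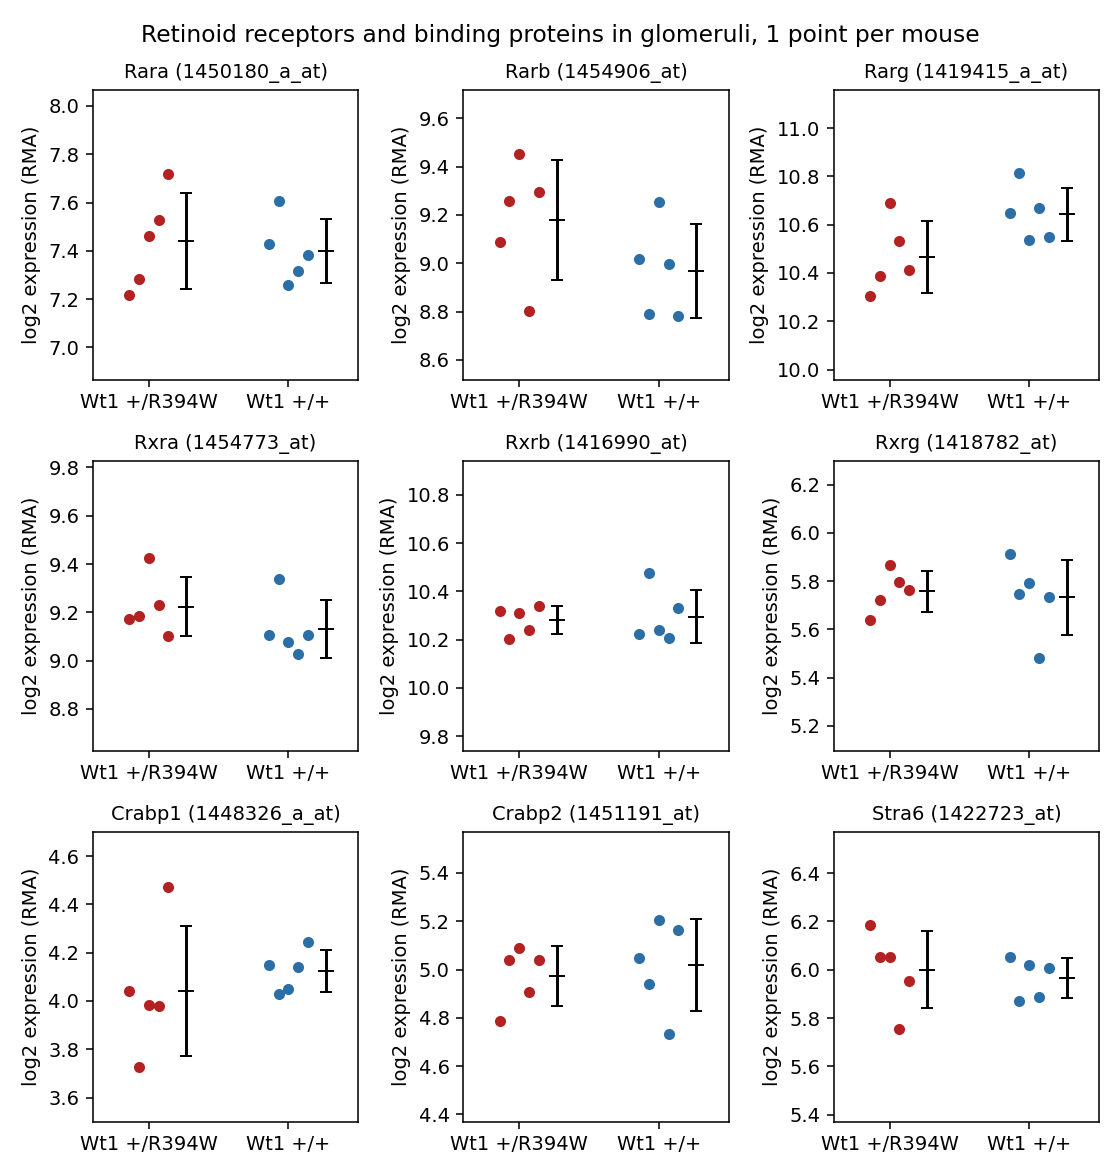
Log2 expression of the chosen probe set of each gene in each mouse, Wt1 +/R394W in red and Wt1 +/+ in blue, with the mean and SD (n = 5) beside the points. Every panel spans 1.2 log2 units, and in all 9 the genotypes overlap.

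The RXR genes encode the obligate partners of the RARs. Rxra, which lies on chromosome 2 as does Wt1, read 9.17, 9.18, 9.43, 9.23 and 9.10 in Wt1 +/R394W and 9.10, 9.34, 9.08, 9.03 and 9.11 in Wt1 +/+ (1454773_at). Wild type 2 stood above the other wild types, and only mutant 3 exceeded it. The change of 0.09 ± 0.08 (SE, 95% interval -0.08 to 0.27) had an adjusted p of 0.789. It was 0.14 without wild type 2 (adjusted p = 0.653) and 0.04 without mutant 3 (adjusted p = 0.927).

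Neither of the other Rxra probe sets was called. 1425762_a_at averaged 7.94 ± 0.13 in Wt1 +/R394W and 7.94 ± 0.14 in Wt1 +/+ (SD, n = 5 each), a change of 0.00 ± 0.09 (SE, adjusted p = 0.999). At a low signal, 1430497_at averaged 4.59 ± 0.08 in Wt1 +/R394W and 4.46 ± 0.13 in Wt1 +/+ (SD, n = 5 each). Its change of 0.12 ± 0.07 (SE, adjusted p = 0.670) was above that of the chosen probe set. Rxrb, which is broadly expressed, had the smallest spread of the 12 probe sets.

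Rxrb read 10.32, 10.20, 10.31, 10.24 and 10.34 in Wt1 +/R394W and 10.22, 10.48, 10.24, 10.21 and 10.33 in Wt1 +/+ (1416990_at, chromosome 17). Wild type 2 was the highest of the 10 mice. The difference was -0.01 ± 0.07 (SE, 95% interval -0.16 to 0.13, adjusted p = 0.973). Rxrg, the RXR best known from muscle and brain, averaged 5.76 ± 0.09 in Wt1 +/R394W and 5.73 ± 0.16 in Wt1 +/+ (SD, n = 5 each). Its change was 0.02 ± 0.08 (SE, 1418782_at, chromosome 1, adjusted p = 0.955).

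Among the other genes of the pathway, calls were met in the enzymes. With 1 probe set per gene, 3 of 18 measured genes of retinoic acid synthesis and breakdown rose and 1 fell. Of all genes 1.26% were called, 0.566% higher and 0.698% lower. The list was chosen with earlier results of these data known, so its share of calls only describes it. Cyp26a1, an RA-degrading enzyme, had the largest change. Aldh1a2, which makes retinoic acid from retinaldehyde, averaged 10.34 ± 0.35 in Wt1 +/R394W and 8.61 ± 0.52 in Wt1 +/+ (SD, n = 5 each, adjusted p = 0.00588). Aldh1a1, a second retinaldehyde dehydrogenase, averaged 5.08 ± 0.25 in Wt1 +/R394W and 6.14 ± 0.23 in Wt1 +/+ (SD, n = 5 each, adjusted p = 0.00371). With the 7 mice whose animal numbers are neighbours (wild types 2 to 4 and mutants 1 to 4) its adjusted p was 0.0780. The Aldh1a1 mean of 5.61 over the 10 arrays lay above 38.7% of all probe sets, below the median of the array. Rdh10, the retinol dehydrogenase, averaged 9.57 ± 0.19 in Wt1 +/R394W and 9.10 ± 0.11 in Wt1 +/+ (SD, n = 5 each, adjusted p = 0.0461). A second Rdh10 probe set (1460632_at) was also called (change 0.36 ± 0.07 SE, adjusted p = 0.0446), and there every mutant lay above every wild type. The call of the chosen Rdh10 probe set was lost without any 1 mouse except mutant 2, with an adjusted p of up to 0.125. The median change of the 18 enzymes was 0.07, against 0.02 for the 9 receptors and binding proteins and 0.00 for all 18193 genes.

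Other carriers, partners and cofactors gave no call. In limma 0 of 8 other retinoid carriers were called, with a median change of -0.06 and 0 genes at an unadjusted p under 0.05. The 4 with the smallest p were the plasma carrier gene Rbp4 (-0.11), Stra6l (-0.07), Rbp2 (-0.08) and Rbp7 (-0.05), and 4 of the 8 had means under 6. Of 12 receptors that pair with RXR, 0 were called and 1 had an unadjusted p under 0.05. That gene was Vdr, the vitamin D receptor, at 8.41 ± 0.25 in Wt1 +/R394W and 8.89 ± 0.11 in Wt1 +/+ (SD, n = 5 each), a change of -0.48 ± 0.11 (SE, adjusted p = 0.0996). All 5 mutants lay below all 5 wild types in Vdr, and its adjusted p was 0.0339 when tubule content as a covariate entered the fit. Vdr was not called in any other alternative, and its adjusted p was 0.278 with wild types 2 to 4 and mutants 1 to 4. The fatty acid receptor gene Ppard changed by -0.10 ± 0.06 (SE), the orphan receptor gene Nr4a1 by 0.59 ± 0.44 (SE) and Pparg by 0.13 ± 0.10 (SE).

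Of 12 coactivator and corepressor genes, 0 were called and 1 had an unadjusted p under 0.05. It was the coactivator gene Ncoa3, at 9.89 ± 0.06 in Wt1 +/R394W and 10.12 ± 0.23 in Wt1 +/+ (SD, n = 5 each, adjusted p = 0.492). Tbl1xr1, a subunit of the corepressor complex, changed by 0.10 ± 0.06 (SE), the coactivator gene Ncoa1 by -0.09 ± 0.07 (SE) and Trim24 by 0.09 ± 0.07 (SE). The median change of the 12 was -0.04.

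Of 20 measured genes known to respond to retinoic acid, which include Rarb, Crabp2 and Stra6, only Cyp26a1 passed the test, and it rose. The other 19 were not called, and the median change of the 20 was 0.03. An unadjusted p under 0.05 was met by 5 of the 20, beside 6 of the 18 enzymes and 2002 of all 18193 genes. Rarres1 changed by -0.54 ± 0.17 (SE, adjusted p = 0.271), the chemerin gene Rarres2 by 0.34 ± 0.13 (SE, adjusted p = 0.378) and the homeobox gene Hoxa5 by -0.29 ± 0.11 (SE, adjusted p = 0.384). Dhrs3, a retinaldehyde reductase induced by retinoic acid in many cells, changed by 0.08 ± 0.13 (SE, adjusted p = 0.897).

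**Figure D4:**
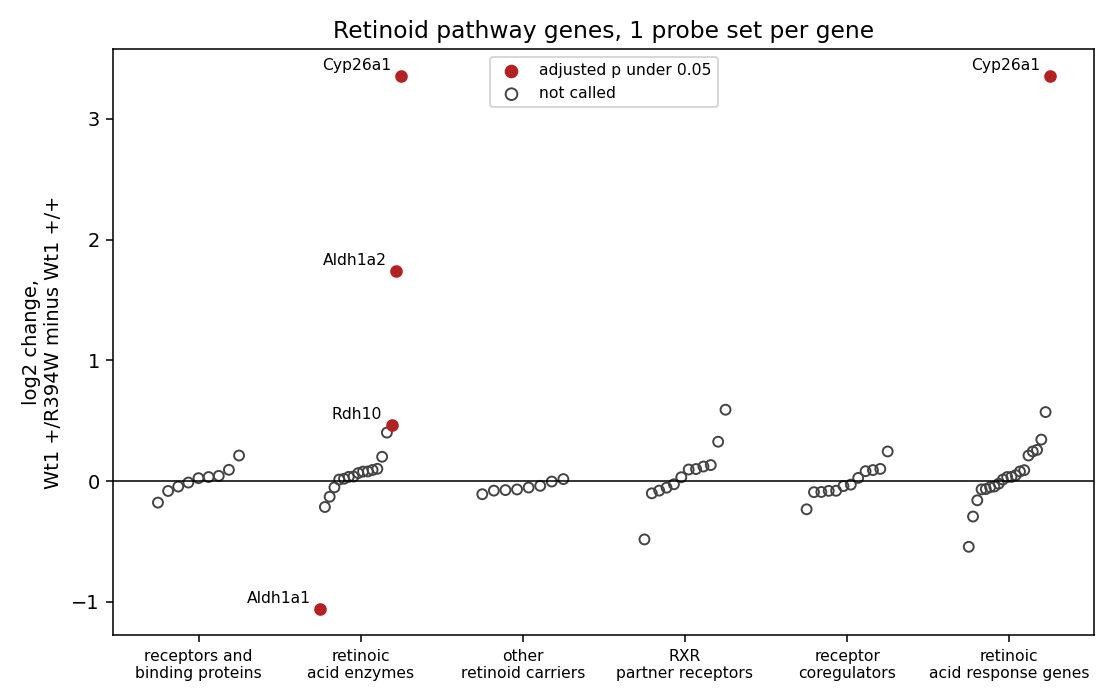
Change of each measured gene on the log2 scale, Wt1 +/R394W minus Wt1 +/+, 1 probe set per gene, grouped by role; filled points passed an adjusted p under 0.05. Among the 9 receptors and binding proteins no point is filled, while Cyp26a1, Aldh1a2, Rdh10 and Aldh1a1 are filled among the enzymes; Cyp26a1 is in both lists that show it.

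The preparations carried varying amounts of tubule, so each probe set was also set against a tubule score. The tubule score, the mean of 22 proximal and distal marker genes per array, ran from 6.85 to 9.52 in Wt1 +/R394W and from 6.70 to 8.70 in Wt1 +/+. Proximal markers alone averaged 7.10 to 10.62 in Wt1 +/R394W and 6.85 to 9.49 in Wt1 +/+. With genotype and score in 1 limma fit, 0 of the 12 probe sets had a slope on the score at an adjusted p under 0.05, where 0.982% of all probe sets outside the markers did, 0.962% rising and 0.0200% falling. One of the 12 had an unadjusted p under 0.05: Crabp1, with a slope of -0.14 ± 0.06 (SE) per unit of score (adjusted p = 0.530). Slopes of the others lay between -0.08 and 0.02. In the same fit Adh1, an alcohol dehydrogenase of the enzyme list, rose by 1.03 ± 0.14 (SE) per unit of score (adjusted p = 0.00278), as did the bile acid receptor gene Nr1h4 by 0.61 ± 0.11 (SE, adjusted p = 0.0201). With the score in the fit the genotype change was 0.22 ± 0.13 (SE) for Rarb and -0.18 ± 0.09 (SE) for the chosen Rarg probe set, beside 0.21 and -0.18 without it. The Crabp1 change was -0.04 ± 0.10 (SE) with the score and -0.08 without it, and that of Crabp2 was -0.02 with it and -0.05 without it. The Rara change was 0.07 with the score and 0.04 without it, and the Rxrb change, near 0 in both fits, turned its sign.

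**Figure D5:**
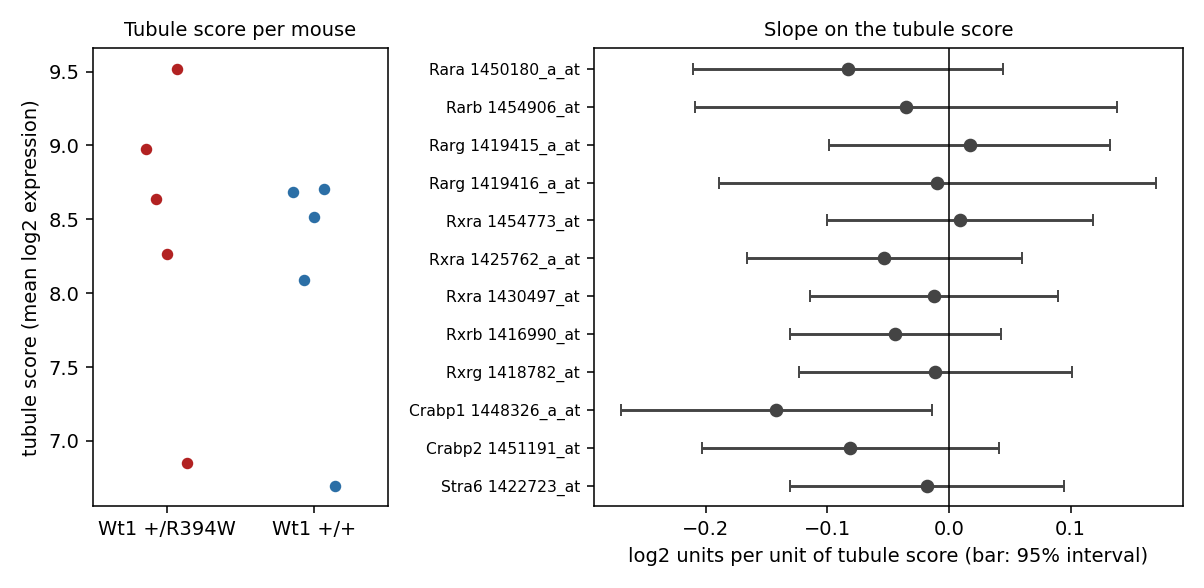
Left, tubule score of each mouse (mean log2 expression of the marker genes). Right, slope of each of the 12 probe sets in log2 units per unit of tubule score, fitted with genotype as a term, with 95% intervals; only the Crabp1 interval leaves out 0, and its adjusted p is 0.530.

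Few markers of other cell types were called. By the same limma fit 0 of 9 podocyte, 9 endothelial, 8 mesangial and smooth muscle, 5 parietal, 11 proximal, 11 distal and 3 erythroid markers were called, with 2, 2, 2, 1, 1, 0 and 2 at an unadjusted p under 0.05. All 9 podocyte changes (-0.33 to -0.0085) and all 9 endothelial changes (-0.37 to -0.02) were negative. Median changes were 0.12 for mesangial and smooth muscle, 0.02 for parietal, 0.46 for proximal, 0.20 for distal and -0.40 for erythroid markers. Whether cell composition differed was not tested. Of 8 leukocyte markers Csf1r, a receptor of macrophages, was lower in the mutants (change -0.99 ± 0.17 SE, adjusted p = 0.0220). The other 7 were not called, and none of them had an unadjusted p under 0.05. The median change of the 8 was -0.02 and the highest was 0.14. The mean level of the leukocyte list, Csf1r included, ran from 6.35 to 7.24 in Wt1 +/R394W and from 6.59 to 7.65 in Wt1 +/+. Its part in the values of the receptors was not tested.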

How the data were processed

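Total RNA of isolated glomeruli was labelled with biotin and hybridised to 1 Affymetrix array per mouse. The deposited values are log2 expression values that the submitters' processing notes name as RMA, a method with background correction, quantile normalization and probe set summaries (version and settings: not given in the sources used here). Raw scans were not analysed here. All 10 columns carried a sample of the series, and 0 carried none. Replicate numbers name mice in accession order, and mice were not paired because their litters are unknown here.

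Of 45101 probe sets 64 controls were left out. The platform annotation gave 1 gene for 34945 of the rest, several for 932 and none for 9160; 34741 matched RefSeq (GRCm38.p6) by gene number and 0 symbols changed. The genotype difference was fitted over 45037 probe sets in R (version 4.3.3) with limma (version 3.58.1), with Benjamini-Hochberg adjustment and 95% intervals for each probe set, and every adjusted p comes from such a fit. Slopes on the tubule score were fitted with genotype as a term, without the marker genes. The fits were tested on simulated data. Promoter windows came from RefSeq.

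The genes described and the lists were chosen with earlier results of these data known. Beside them, the genes named are Wt1, called and smallest-p genes of each pathway list (up to 4), and the 3 genes closest to the member with the smallest p. Dhrs3, Adh1 and Nr1h4 were named after their values were seen, and only Csf1r of the cell markers is named. Alternatives covered centring, quantile normalization, a minimum mean of 6, variance models, array weights, probe set types, gene means, the tubule score as covariate, the 7 mice with neighbouring animal numbers, and each mouse left out. Figures used matplotlib (version 3.10.9) in Python (version 3.11.15).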

Additional observations from a re-analysis of the deposited data

Results flagged for a closer look

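Of 34 groups of 5 mice checked (17 probe sets, 2 genotypes), 1 held a mouse far from the rest. In Rxra (1454773_at) wild type 2 read 9.34, and the other wild types read 9.03 to 9.11. Chance flags about 1 in 20 groups. Without wild type 2 the Rxra change was 0.14 ± 0.07 (SE, limma, adjusted p = 0.653), and without mutant 3 it was 0.04 ± 0.07 (SE, adjusted p = 0.927).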

How the results depend on the processing

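No paired analysis was possible because the labels give no litter and the replicate numbers only name mice. The count of called probe sets among the 12 was 0 under every alternative run, mice left out included. The count that moved with the tubule score was 0 wherever it was refitted, which was not done with wild types 2 to 4 and mutants 1 to 4. Over the settings the 12 probe sets gave 220 values, with 0 called, 10 at an unadjusted p under 0.05 and a lowest adjusted p of 0.354. The array-wide count of 384 was 110 with wild types 2 to 4 and mutants 1 to 4 and ran from 216 to 301 with 1 mouse left out. The sign turned in 16 of the 220 values, of 6 genes whose changes lay near 0 and were not called; the cause was not tested. Rxra 1425762_a_at was -0.024 with quantile normalization and -0.062 with wild types 2 to 4 and mutants 1 to 4, and Rara was -0.021 with those mice. Rxrb was 0.0015 with the tubule score as covariate. When a single mouse was left out, changes ran from -0.026 to 0.100 for Rara, from -0.049 to 0.045 for Rxra 1425762_a_at, from -0.034 to 0.033 for Rxrb, from -0.038 to 0.069 for Rxrg, from -0.117 to 0.0015 for Crabp2 and from -0.013 to 0.095 for Stra6. The call of the chosen Rdh10 probe set was also lost with median centring, array weights, the tubule score or the subset of mice (adjusted p = 0.0542, 0.0781, 0.0571 and 0.419). Its changes there were 0.47, 0.41, 0.47 and 0.34, beside 0.47 in the reported fit. Low signal limits Crabp1, Crabp2, Rxrg and Stra6, since RMA understates changes there. The called enzyme gene Aldh1a1 also lay below the median signal of the array.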
